A study of Mus musculus with 4 samples.

Results

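Antigen-experienced CD8 T cells were taken from 4 single-cell RNA-sequencing libraries as the barcodes that carried CD8 and Ccl5 transcripts. A barcode tags the RNA of 1 droplet, normally 1 cell, and a UMI (unique molecular identifier) counts 1 captured RNA molecule. A member had at least 500 detected genes, at most 10% mitochondrial UMIs, at least 1 UMI of Cd3e, Cd3d or Cd3g, at least 1 of Cd8a or Cd8b1, at least 2 of Ccl5, and none of Cd4. Barcodes with a UMI of Trbv15 or Trbv13-3, 2 segments of the T-cell receptor beta chain, were left out. The rule found 576 members among 19357 kept barcodes: 255 control and 232 CD4-Cre barcodes from the pancreas, and 23 control and 66 CD4-Cre barcodes from the lymph node.

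The mice were pre-diabetic females. Both groups carried floxed alleles of Ocab, the older name of Pou2af1, and the CD4-Cre group (Ocabfl/fl.CD4-Cre) also carried Cre recombinase under a Cd4 promoter. That promoter is active in developing thymocytes, so deletion can occur in CD8 as well as CD4 T cells, and B cells keep the gene. The control (Ocabfl/fl) had no Cre, so an effect of Cre itself cannot be told apart from one of the deletion. Pancreas libraries held CD45+ leukocytes sorted by flow cytometry from 4 pooled mice of 12 weeks. Lymph node libraries held CD3 T cells selected with magnets from the pancreatic lymph nodes of 5 pooled mice of 8 weeks. The strain is not given in the labels used here. There was 1 library in each group, so no difference below has a replicate check and none was tested. All intervals are 95% intervals for counting error alone and do not cover the spread between mice or preparations.

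After meeting antigen, CD8 T cells change from a naive state, marked by the lymph node homing receptor Ccr7 and the transcription factors Tcf7 and Lef1, into effector and memory cells that hold Ccl5 mRNA ready. Terminal effector cells carry Klrg1 and Cx3cr1 and are armed with granzymes and perforin. Resident memory cells stay in tissue and carry Cxcr6, Itgae and Itga1, while recirculating memory cells keep Ccr7 or S1pr1. Cells exposed to persistent antigen carry inhibitory receptors such as Pdcd1, Lag3 and Tigit, and a Tcf7+ progenitor pool sustains them. In type 1 diabetes, CD8 T cells of the pancreas recognise islet antigens and kill beta cells. Pou2af1 encodes OCA-B, a coactivator that binds the Oct1 and Oct2 factors on octamer DNA elements.

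Summed over members, the pancreas pair held 1340892 (control) and 1457443 (CD4-Cre) UMIs and the lymph node pair 153099 and 425964, with medians of 4053, 4458, 6277 and 6177.5 UMIs per barcode. Values are these sums scaled to the members' total UMIs, in CPM, and sets of 4 values keep this order of libraries. No barcode sequence was shared between the members of any pair of libraries, although 15 to 62 were shared among all kept barcodes of a pair. Gzmk, which encodes granzyme K and took no part in the rule, had 395 and 456 CPM in pancreas control and CD4-Cre members and 216 and 202 CPM in the lymph node pair. Cxcr6 had 634, 427, 144 and 131 CPM in the same order. In lymph node members, a Gzmk UMI was found in only 21.7% and 25.8% of barcodes and a Cxcr6 UMI in 34.8% and 40.9%, against 53.7% and 53.9% (Gzmk) and 63.5% and 52.6% (Cxcr6) in the pancreas. The label therefore rests on Ccl5 and CD8 for most lymph node members. At the threshold itself, 5, 8, 2 and 6 members held exactly 2 Ccl5 UMIs, and 11, 14, 17 and 32 CD8 barcodes with exactly 1 were left outside. The median Ccl5 count per member was 74, 57.5, 11 and 14 in the same order.

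Some pancreas barcodes also held RNA of other lineages. At least 2 UMIs of 6 B-cell markers were found in 11.8% of control and 12.9% of CD4-Cre members, and at least 2 of 5 myeloid markers in 40.0% and 40.9%. The summed myeloid level was 1116 CPM in control and 3261 CPM in CD4-Cre, and that of the B-cell markers was 3363 and 4760 CPM. Ncr1, an NK receptor, was detected in 10 control and 31 CD4-Cre members. In both lymph node libraries Cd79a, Ms4a1, Jchain, Lyz2, Csf1r, C1qa, Xcr1, Clec9a, Ncr1 and Klrb1c were at 0 in members. The other 2 myeloid markers, Cst3 and Cd68, were present there, at 118 and 162 CPM for the sum, with at least 2 UMIs in 21.7% and 22.7% of members. Of the NK list only Eomes, which memory CD8 T cells also express, was detected. Results in the pancreas are therefore also given for the 220 control and 188 CD4-Cre members left after removing barcodes with at least 2 summed UMIs of 11 markers of other lineages ("without other lineages"). That setting was chosen after seeing the data, and it removed no lymph node member.

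The targeted gene was low in these cells. Pou2af1 (ENSMUSG00000032053) had 26 UMIs in pancreas control members (19.4 CPM, in 11 barcodes) and 11 in pancreas CD4-Cre members (7.55 CPM, in 6 barcodes), and none in either lymph node group. Without other lineages, 1 UMI remained in control and 0 in CD4-Cre. The labels used here do not say which exons are floxed, and at this depth the counts do not show whether the gene was lost in the members.

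Members made up a smaller share of CD8 barcodes in the pancreas CD4-Cre library than in its control. After each barcode was thinned to 2000 UMIs, 226 of 344 control barcodes (65.7%, 60.4 to 70.7) and 184 of 522 CD4-Cre barcodes (35.2%, 31.1 to 39.5) met the Ccl5 threshold. The difference was −30.4 percentage points (−36.7 to −23.8), and −26.9 points without thinning (67.6% and 40.8%). Without other lineages it was −29.6 points. Among B cells, which should lack Ccl5, 0.357% and 0.321% met the threshold at the same depth (median 3562 and 3430 UMIs before thinning). In the lymph node, 2.73% of control and 3.35% of CD4-Cre CD8 barcodes were members, a difference of 0.617 points (−1.18 to 2.11). The denominator is CD8 barcodes without the 2 left-out segments, so these shares depend on how many barcodes with no Ccl5 UMI each library held: 111, 323, 584 and 1280. Trbv15 removed 16, 85, 0 and 2 barcodes that otherwise met the rule, and Trbv13-3 removed 74, 34, 1 and 3.

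**Figure D1:**
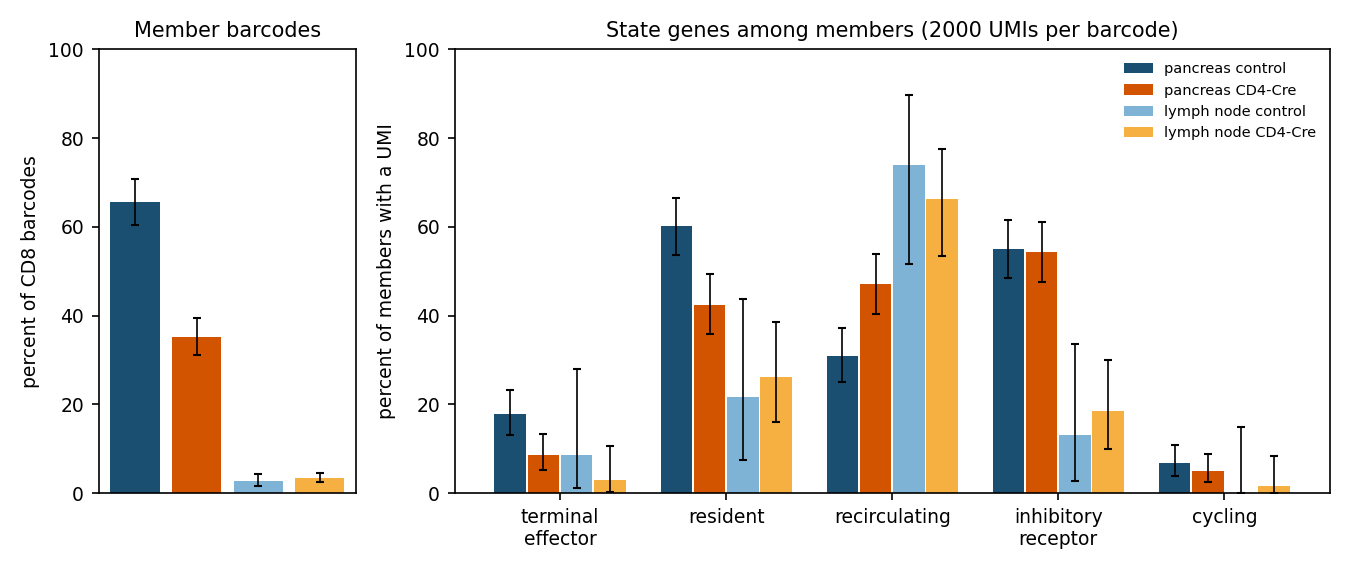
Left, share of CD8 barcodes that were members in each of the 4 libraries (percent, thinned to 2000 UMIs); right, share of members with at least 1 UMI of each state group. Bars are shares and error bars are exact Clopper-Pearson 95% intervals for counting error; pancreas control stands above pancreas CD4-Cre for the resident group and below it for the recirculating group.

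Within the pancreas members, the CD4-Cre library held fewer barcodes with terminal effector and resident transcripts and more with recirculating transcripts. These are shares of members with at least 1 UMI of a group at 2000 UMIs per barcode, over 236 control and 219 CD4-Cre members that were deep enough. A terminal effector UMI (Klrg1, Cx3cr1 or S1pr5) was found in 17.8% of control and 8.68% of CD4-Cre members, a difference of −9.12 points (−15.3 to −2.88). A resident UMI (Cxcr6, Itgae or Itga1) was found in 60.2% and 42.5%, a difference of −17.7 points (−26.5 to −8.52). A recirculating UMI (of a group that includes Ccr7 and S1pr1) was found in 30.9% and 47.0%, a difference of 16.1 points (7.14 to 24.7). The resident difference was −9.26 points without thinning. When Trbv15 and Trbv13-3 barcodes were kept, it was −6.71 points and the recirculating difference 8.51 points. After a broader removal of barcodes with other-lineage RNA, described with the naive genes, the terminal effector difference was −5.52 points and the recirculating one 24.2 points. Among B cells of the same libraries and depth, 0.238% and 0.160% carried a terminal effector UMI, 0.238% and 0.241% a resident one, and 0.595% and 0.401% an inhibitory one. In pancreas CD8 barcodes with no Ccl5 UMI, the resident share was 14.6% and 23.0%, the inhibitory share 17.5% and 12.1% and the recirculating share 85.4% and 83.4%, and none of 103 and 313 barcodes had a terminal effector UMI. The resident group was therefore not limited to members. B cells express the recirculating genes themselves (73.7% and 71.3%), so they set no background for that group.

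The inhibitory receptor group did not follow the other 3. A UMI of Pdcd1, Lag3, Havcr2, Tigit, Ctla4 or Cd160 was found in 55.1% of control and 54.3% of CD4-Cre members, a difference of −0.747 points with an interval from −9.82 to 8.33. Its sign was not stable, at 2.53 points without other lineages and −8.45 points after the broader removal. A cycling UMI (Mki67, Top2a or Birc5) was found in 6.78% and 5.02%. In control members the inhibitory receptors overlapped with residency: 63.4% of barcodes with a resident UMI had an inhibitory one, against 42.6% of those without. The corresponding shares in CD4-Cre were 61.3% and 49.2%. Terminal effector barcodes went the other way in control, with an inhibitory UMI in 35.7% of those with a terminal effector UMI and 59.3% of those without; in CD4-Cre the shares were 47.4% and 55.0%. None of the terminal effector, resident and recirculating UMIs was found in 14.8% of control and 24.2% of CD4-Cre members.

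The 3 states differed in other genes that had not defined them. In pancreas control, counted without thinning, 15 members had a terminal effector UMI alone, 85 a resident UMI alone and 39 a recirculating UMI alone, with the terminal effector ones the shallowest (median 2077 UMIs). Gzma, which encodes granzyme A, had 14596 CPM in the terminal effector barcodes, 249 in the resident ones and 216 in the recirculating ones. Rgs1, a regulator of G-protein signalling, and the chemokine Ccl4 had 631 and 588 CPM in the resident barcodes, against 91.8 and 207 CPM in the terminal effector and 211 and 43.2 CPM in the recirculating ones. Pdcd1 and Tigit had 275 and 243 CPM there and no UMI in the terminal effector barcodes. Il7r, the receptor for the survival cytokine IL-7, had 456 CPM in the recirculating barcodes and no UMI in the terminal effector ones, which allows up to 84.7 CPM there. The terminal effector barcodes also held the NK receptor Ncr1 at 367 CPM, against 18.7 CPM in the resident and 120.1 CPM in the recirculating ones, and its part in their profile was not tested. The CD4-Cre library had 5, 48 and 58 barcodes of the 3 kinds.

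Across all genes, the pancreas genotypes were close in members. Of 7541 genes that reached 30 UMIs over the pair, 1.99% were at least 2-fold higher in CD4-Cre and 1.55% at least 2-fold lower (150 and 117 genes), and the median log2 ratio was −0.0048. Without other lineages, 85 genes were higher and 115 lower of 6362. The gene groups below are read against those shares.

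Terminal effector genes were lower in CD4-Cre members of the pancreas. Of 12 such genes with enough UMIs, 9 were lower and 3 higher, 3 of them at least 2-fold lower, with a median log2 ratio of −0.42. Cx3cr1, the fractalkine receptor of terminal effector cells, had 137 UMIs (102 CPM) in 54 control members and 59 UMIs (40.5 CPM) in 26 CD4-Cre members, a log2 ratio of −1.34 (−1.80 to −0.89). Klrg1, an inhibitory lectin receptor, had 58.2 and 25.4 CPM, a log2 ratio of −1.20 (−1.80 to −0.61). S1pr5, which guides effector cells out of tissue, had 52.2 and 25.4 CPM (−1.04, −1.66 to −0.45). Zeb2, the transcription factor of terminal differentiation, had 64.1 and 35.7 CPM (−0.85, −1.37 to −0.33), while for Tbx21 (T-bet) the interval reached 0 at 99.9 and 78.9 CPM (−0.34, −0.71 to 0.03). All 4 of the former were further apart without other lineages, at −2.04 (Cx3cr1), −1.51 (Klrg1), −2.18 (S1pr5) and −1.92 (Zeb2), and the list median was −0.54. After the broader removal Klrg1 was at −0.58.

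Gzma, which is in both the terminal effector and the granule list, was lower in CD4-Cre. It had 1760.0 CPM in control and 1027 CPM in CD4-Cre (log2 ratio −0.78, −0.87 to −0.68). It was concentrated in few cells: 73 control and 40 CD4-Cre members held it, and 1 barcode gave 30.1% of the CD4-Cre UMIs. Without other lineages the ratio was −1.24. The other granule genes differed less. Gzmb had 246 and 183 CPM (−0.43, −0.67 to −0.19), with 53% of the CD4-Cre UMIs in 1 barcode, and Prf1, which encodes perforin, had 107 and 104 CPM (−0.04, −0.38 to 0.30). Gzmk (0.20, 0.04 to 0.37) and Gzmm (0.81, 0.17 to 1.48) were higher in CD4-Cre, at 456 against 395 CPM for Gzmk and 41.9 against 23.9 CPM for Gzmm. Nkg7, a granule protein needed for exocytosis, was detected in 250 of 255 control and 228 of 232 CD4-Cre members, at 2802 and 2229 CPM (−0.33, −0.40 to −0.26). Of 12 granule genes, 4 were higher, 8 lower and none was at least 2-fold different, with a median of −0.14.

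Effector cytokine and chemokine genes were mostly lower in CD4-Cre. Of 11 with enough UMIs, 10 were lower and 3 at least 2-fold lower, with a median of −0.51 (−0.75 without other lineages). Ccl4, a chemokine of activated T cells, had 581 UMIs (433 CPM) in 125 control members and 243 UMIs (167 CPM) in 66 CD4-Cre members, a log2 ratio of −1.38 (−1.60 to −1.16). Its ratio was −1.40 without other lineages and −0.38 when Trbv15 and Trbv13-3 barcodes were kept. Ifng, which encodes interferon gamma, had 101 and 54.2 CPM (−0.89, −1.31 to −0.48), with −0.89 again without other lineages and −0.27 with the Trbv15 and Trbv13-3 barcodes kept. Fasl, the death ligand, had 148 and 104 CPM (−0.51, −0.83 to −0.20). Lta, lymphotoxin alpha, had 29 UMIs against 7 (−2.17, −3.61 to −0.95), and was at −0.80 with those barcodes kept. Ccl3 had 81.3 and 26.1 CPM (−1.64, −2.21 to −1.10), but 48.6% of its control UMIs came from 1 barcode and the log2 ratio was 0.49 when Trbv15 and Trbv13-3 barcodes were kept. Ltb, lymphotoxin beta, which resting T cells also express, was level at 983 and 961 CPM (−0.03, −0.14 to 0.08).

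**Figure D2:**
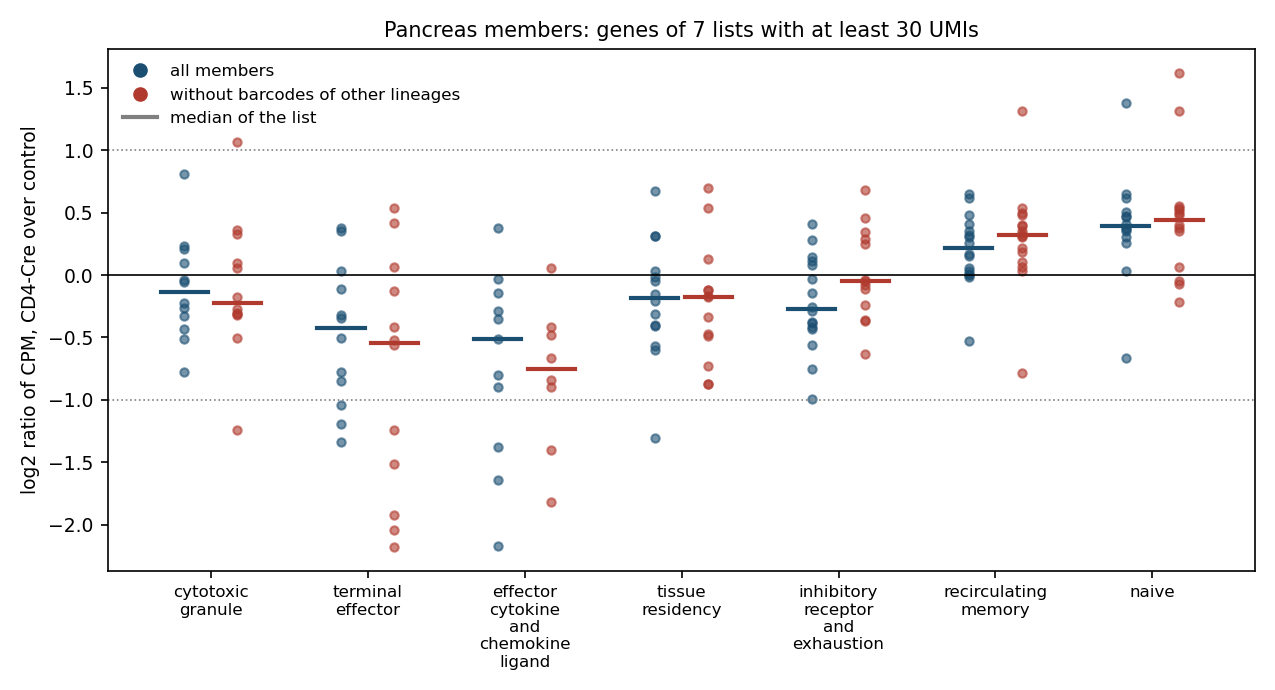
Log2 ratios of CD4-Cre over control in pancreas members for genes that reached 30 UMIs over the pair (points), with the list medians. The lists are cytotoxic granule, terminal effector, effector cytokine, residency, inhibitory receptor, recirculating memory and naive. Each list is drawn for all members and without other lineages. In all members the naive and recirculating memory lists have medians of 0.39 and 0.21, and the effector cytokine and terminal effector lists have medians of −0.51 and −0.42.

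Genes of the naive and recirculating memory states were higher in CD4-Cre members of the pancreas, in most cases by less than 2-fold. Of 14 naive genes, 13 were higher and 1 lower (median 0.39, and 0.44 without other lineages). Of 16 recirculating memory genes, 13 were higher (median 0.21). A broader removal, of barcodes with at least 2 summed UMIs of 19 B-cell, myeloid, exocrine, NK or gamma-delta genes, left 108 and 97 members and put the naive median at 0.81. Ccr7 had 104 and 164 CPM (0.65, 0.34 to 0.96), with 42.9% of the control UMIs in 1 barcode, and a ratio of 1.31 without other lineages. Lef1 (0.41, 0.09 to 0.73) and Il7r (0.30, 0.09 to 0.52) were higher at 141 against 106 and 292 against 236 CPM, whereas for Tcf7 the interval reached below 0 (122 and 145 CPM, 0.26, −0.04 to 0.56). With Trbv15 and Trbv13-3 barcodes kept, Lef1 was at 0.022 and Il7r at 0.23. After the broader removal they were at 0.155 and 0.87. In all members, Dapl1, a gene of naive and early memory CD8 T cells, was the only naive-list gene at least 2-fold higher. It had 39 UMIs against 110 (29.1 and 75.5 CPM, 1.38, 0.84 to 1.94), and was at 0.82 with at least 5 Ccl5 UMIs. Without other lineages, 2 naive-list genes were at least 2-fold higher. The lists share genes, among them Ccr7, Lef1, Tcf7, Il7r, S1pr1 and Klf2, so their medians are not separate measurements. Genes of central memory in the same list that naive cells express little, Eomes (139 and 173 CPM, 0.32, 0.04 to 0.60) and Cd44 (64.9 and 90.6 CPM, 0.48, 0.08 to 0.89), were also higher in CD4-Cre.

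Progenitor exhausted genes overlapped with this group, with 8 of 12 higher and a median of 0.27. Id3, a transcriptional inhibitor of progenitor and memory cells, had 29.8 CPM in control and 64.5 in CD4-Cre (1.11, 0.56 to 1.68; 1.67 without other lineages). Slamf6, a surface marker of progenitor cells, had 105 and 128 CPM (0.29, −0.04 to 0.61). Bach2, a repressor of effector genes, went the other way without a clear difference, with 32 UMIs against 22 (−0.66, −1.51 to 0.17), and after the broader removal it was at 0.94. With a threshold of at least 5 Ccl5 UMIs, Id3 was at 0.43.

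Among residency genes, Cxcr6 was lower in CD4-Cre members, at 634 and 427 CPM (−0.57, −0.72 to −0.42), and it was found in 162 of 255 and 122 of 232 barcodes. With Trbv15 and Trbv13-3 barcodes kept, the Cxcr6 ratio was −0.095. Itgae (CD103) had 83.5 and 67.2 CPM (−0.31, −0.72 to 0.09), and Itga1 (CD49a) had 58.2 and 43.9 CPM (−0.41, −0.91 to 0.09), so both leaned the same way within counting error. Rgs1 was nearly level at 316 and 285 CPM (−0.15, −0.35 to 0.05). P2rx7, the ATP-gated channel, was the only one of 14 residency genes at least 2-fold lower, on 25 UMIs against 11 (−1.30, −2.48 to −0.23). The list had 4 genes higher and 10 lower, with a median of −0.18 in all members and without other lineages, and −0.64 after the broader removal, where Itgae was at −1.29, Itga1 at −1.03 and Rgs1 at −0.86.

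Inhibitory receptor and exhaustion genes had 5 higher and 11 lower of 16 and none at least 2-fold different, with a median of −0.27. Ctla4 had 110 and 65.2 CPM (−0.75, −1.14 to −0.37), and Rgs16, a gene of exhausted cells, had 98.4 and 49.4 CPM (−0.99, −1.43 to −0.57). Pdcd1 (PD-1) had 145 and 111 CPM (−0.39, −0.70 to −0.08) and Lag3 had 162 and 125 CPM (−0.37, −0.67 to −0.08). Tigit was level at 152 and 161 CPM (0.08, −0.20 to 0.36), and so was Tox, the transcription factor of exhaustion, at 119 and 108 CPM (−0.15, −0.47 to 0.18), although Tox was at −1.02 after the broader removal. Without other lineages the list median was −0.05, with Pdcd1 at −0.11, Lag3 at −0.24 and Ctla4 at −0.36. With Trbv15 and Trbv13-3 barcodes kept, the list median was 0.068, with Pdcd1 at 0.20 and Rgs16 at 0.15.

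**Figure D3:**
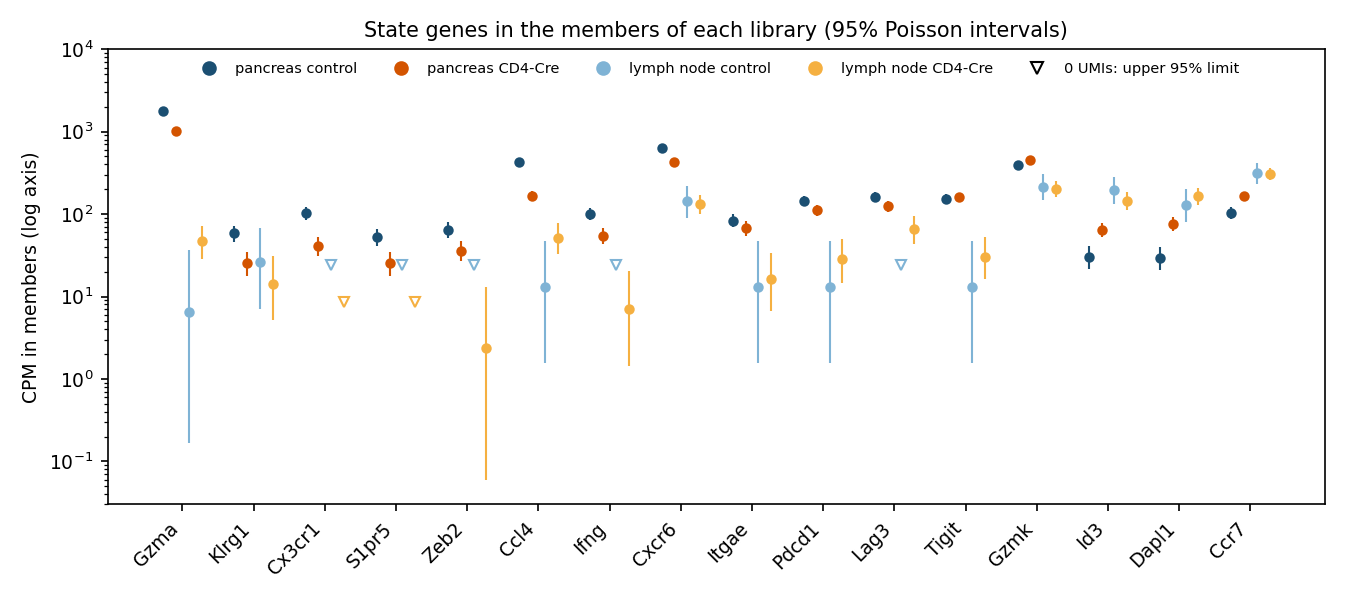
CPM of effector, memory, residency and inhibitory receptor genes in the members of each of the 4 libraries, on a log axis, with exact Poisson 95% intervals for counting error. In the pancreas, Cx3cr1, Ccl4 and Cxcr6 are higher in control and Dapl1 and Id3 in CD4-Cre; Cx3cr1 has no UMI in lymph node members.

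Further groups differed between the pancreas libraries, and the values of some changed when barcodes with other-lineage RNA were left out. All 17 cell cycle genes were lower in CD4-Cre (median −0.41, −0.51 without other lineages and 0.067 after the broader removal), for example Top2a at 75.3 and 43.2 CPM (−0.80, −1.28 to −0.33), but none was at least 2-fold lower, and Top2a came from 21 and 12 barcodes. NK receptor genes were higher, 9 of 14 with a median of 0.36 and 4 at least 2-fold. Ncr1 had 60.4 and 133 CPM (1.14, 0.76 to 1.53) and Fcer1g, the signalling chain of NK and myeloid receptors, had 178 and 375 CPM (1.07, 0.85 to 1.30). Without other lineages the NK receptor median was −0.23, with 2 of 8 genes still at least 2-fold higher. Fcer1g was then at 1.84 (24 UMIs against 74), and 1 and 4 UMIs of Ncr1 remained. Interferon-response genes were lower, 11 of 15 with a median of −0.12 and 3 at least 2-fold, among them Isg15 at 102 and 48.0 CPM (−1.09, −1.52 to −0.67); without other lineages the median was 0.02 and Isg15 was at −0.34. In the T-cell receptor signal list, Irf8 was higher (49.97 and 186.6 CPM, 1.90, 1.51 to 2.31) in 28 and 37 barcodes, beside the myeloid level given above, and was at 1.36 without other lineages. Egr2 was lower on 27 UMIs against 11 (−1.42, −2.58 to −0.36), or at 0.072 with Trbv15 and Trbv13-3 barcodes kept. The other receptor-signal genes had intervals that reached 0, such as Nr4a1 at 53.7 and 42.5 CPM (−0.34, −0.85 to 0.17). Nr4a1, an immediate early gene of receptor signalling, was nevertheless lower in CD4-Cre without other lineages, on 65 UMIs against 11 (−2.35, −3.42 to −1.41), and at −3.08 after the broader removal. S100a4, a calcium-binding protein of effector and memory cells, had 263 and 145 CPM (−0.86, −1.12 to −0.61), in a list of 12 S100, annexin and galectin genes with a median of 0.03.

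Ranking all eligible genes gave other-lineage genes at the top. The 10 highest log2 ratios in CD4-Cre were Cxcl13, Wdfy4, Mpeg1, Naaa, Gm15056, Cst3, Irf8, Cd9, Cd24a and Aif1, from 4.61 down to 1.60. Many of these are genes of dendritic cells and macrophages, and most were held by few barcodes: all 53 UMIs of Cxcl13 came from 1 barcode and 98.4% of the 63 Gm15056 UMIs from another. Without other lineages, no UMI of Wdfy4 or Aif1 remained in either library and Cst3 was at 0.05, while Irf8 stayed higher as given above. Cd9, a tetraspanin, was spread over 22 control and 63 CD4-Cre members (22.4 and 74.8 CPM, 1.74, 1.15 to 2.38) and was at 1.90 without other lineages. The 10 lowest were Lyz1, Ifitm1, Ccl3, Nsd2, Camk2n1, Heca, Ccl4, Cx3cr1, Cdca8 and H2-M2, from −7.34 to −1.25. Lyz1 came from 1 control barcode (98.7% of 597 UMIs). Camk2n1, an inhibitor of the kinase CaMKII, was spread over 75 control and 31 CD4-Cre members (71.6 and 26.1 CPM, −1.46, −2.04 to −0.90). Nsd2, a histone H3 methyltransferase, was spread over 46 and 22 members (51.5 and 18.5 CPM, −1.47, −2.17 to −0.81).

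OCA-B acts on octamer elements, so the octamer ATGCAAAT was searched on both strands of RefSeq promoter windows (GRCm38.p6, 250 bases before to 50 after each start). Of the 212 list genes searched for, 166 were matched, and 4 of their 214 windows (1.87%) held the octamer, against 570 of 32851 (1.74%) for all promoters. The 4 windows belong to Egr2, an early receptor-signal gene, and Srgn, which encodes serglycin, the proteoglycan that packs granzymes. They are shown because among the matched list genes these are the ones with the element. The capitals mark the octamer within a stretch of 30 bases. The stretches lie at chr10:67537731-67537760 on the plus strand for Egr2 and at chr10:62507978-62508007 on the minus strand for Srgn. Both are written 5′ to 3′ along the gene.
Egr2: gccaagcccgtATGCAAATtggccatgtga
Srgn: cATGCAAATgacagatggcagagctttttg
Srgn had 980 and 840 CPM in pancreas members (−0.22, −0.34 to −0.11) and 503 and 554 CPM in lymph node members, and Egr2 had the low counts given above. A match describes the letters in this window and no binding was measured.

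No single segment was given to most pancreas members, but the rule had left out 2 beta segments. Trbv15 had removed 16 control and 85 CD4-Cre pancreas barcodes, and Trbv13-3 had removed 74 and 34. The spread of beta segments below was therefore partly set by that choice. With the segment of most UMIs given to each barcode, 228 of 255 control and 222 of 232 CD4-Cre pancreas members had a Trbv call. The most frequent were Trbv3 (12.3%), Trbv13-2 (10.96%) and Trbv19 (10.5%) in control, and Trbv13-2 (18.0%, 13.2 to 23.7), Trbv3 (10.4%) and Trbv13-1 (9.91%) in CD4-Cre. Trav13-2 was the most frequent alpha segment in control at 17.0% (12.2 to 22.7) and was found in 4.84% (2.24 to 8.99) of CD4-Cre members with a call. The next in control was Trav16d-dv11 (9.43%), and Trav3-3 (10.2%) and Trav16d-dv11 (8.06%) led in CD4-Cre. In the lymph node, Trbv13-2 led in both libraries, with 5 of 22 control and 9 of 64 CD4-Cre calls. Whether barcodes with 1 segment are 1 clone is not shown by the segment.

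In the lymph node, the genotypes could be compared on 23 and 66 members. Of 2305 genes with at least 30 UMIs, 2.43% were at least 2-fold higher in CD4-Cre and 2.86% at least 2-fold lower (56 and 66 genes). With edgeR's TMM library sizes, all log2 ratios of this comparison moved up by 0.147, and the counts became 78 higher and 32 lower, so 70.9% of calls were higher against 45.9% by total UMIs. Ratios in the rest of this paragraph are relative to the TMM sizes. Naive (median 0.01, 12 genes), recirculating memory (0.10, 14 genes) and cytotoxic granule genes (0.08, 8 genes) had medians near that of all genes (0.08). Nkg7 had 1254 and 1458 CPM (0.36, 0.13 to 0.61). Ccr7 was level at 314 and 308 CPM (0.12, −0.37 to 0.63). Interferon-response genes had the lowest median (−0.58, 13 genes, 4 at least 2-fold lower), but 60.9% of the control Isg15 UMIs and 70.0% of the control Ifit3 UMIs came from 1 barcode each. By total UMIs, the 10 highest ratios were those of Polr2l, Aurkaip1, Sit1, Canx, Tpst2, Cox6c, Ptma, Rps29, Rps18 and Rpl38, from 1.48 down to 0.43, of which Rps29, Rps18 and Rpl38 encode ribosomal proteins. Of the 10 lowest, 9 were those of Dgka, Lars2, Gdi2, Gm11808, Ets1, AY036118, Gm42418, Gnas and Rpl13a, from −0.91 to −0.49. None of the 16 inhibitory receptor and exhaustion genes reached 30 UMIs over the pair, so no ratio is given for them. Pdcd1 had 2 UMIs in control members and 12 in those of CD4-Cre. Lag3 had 0 and 28, so all its UMIs came from CD4-Cre members. A terminal effector UMI was found in 2 of 23 and 2 of 65 thinned members, and a recirculating UMI in 73.9% and 66.2%. The difference in the recirculating share was −7.76 points at 2000 UMIs and −27.1 points at 1000 UMIs.

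Members from the pancreas and from its lymph node were far apart in both genotypes. Tissue, age and cell selection differ together between the libraries and cannot be told apart. Of 5611 genes in control, 16.1% were at least 2-fold higher in pancreas and 3.89% at least 2-fold lower. Of 6235 in CD4-Cre, 16.1% were higher and 1.52% lower. The UMI minimum applies to the sum of both libraries, and pancreas members held far more UMIs. Genes with few lymph node UMIs could pass only on their pancreas counts. The minimum therefore partly set these counts and the list counts and medians below. TMM sizes moved the ratios by −0.110 in control and −0.251 in CD4-Cre, with 799 higher and 306 lower in control and 702 and 222 in CD4-Cre, so 76.0% of the CD4-Cre calls were higher against 91.3% by total UMIs. Ratios of this contrast below are relative to the TMM sizes, on which the all-gene medians were 0.08 and 0.01. The 10 highest ratios in control were those of Gzma, S100a6, Ccl4, Junb, Cetn2, Ppp1r15a, Tigit, Gadd45b, Pdcd1 and Cks2, and 9 of the 10 lowest those of Ifi47, Dgka, Rsrp1, Rps28, Gm10260, Evl, Gimap4, Nme2 and Skp1a. In CD4-Cre the highest were Gzmb, S100a4, Fscn1, Marcksl1, Gadd45b, Irf8, Cd24a, S100a6, Aif1 and Gzma, and 9 of the 10 lowest Gzmm, Dtx1, Tgtp2, Ifi214, Lef1, Rps28, Rps29, Rpl38 and Id3. A gene with no lymph node UMI is set against a floor of 3 UMIs, and its ratio is a lower bound. In control, 5 of the 10 highest rested on 1 lymph node UMI. In CD4-Cre, Fscn1 came from 3 pancreas barcodes, Aif1 from 10 and Cd24a from 14, and 7 of the 10 rested on 1 lymph node UMI.

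**Figure D4:**
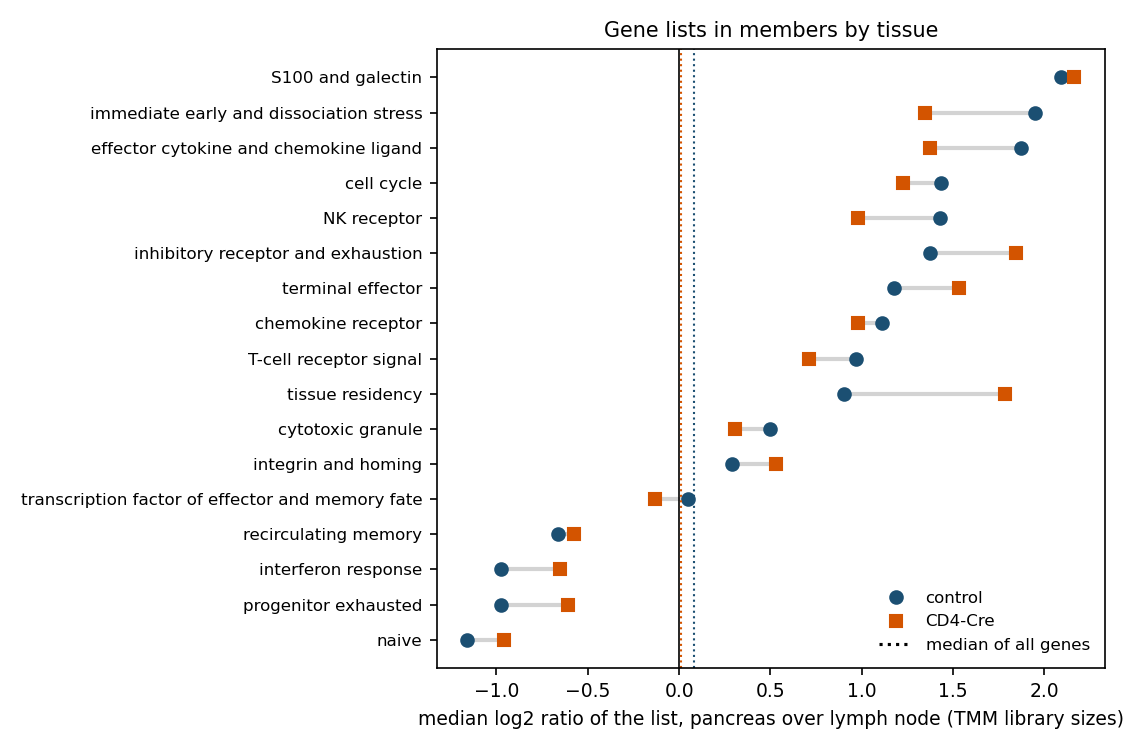
Median log2 ratio of pancreas over lymph node members for each gene list, in control and in CD4-Cre libraries, relative to TMM library sizes, with genes at 0 in the lymph node at their lower bound. S100 and galectin, immediate early and inhibitory receptor lists lie above 1 in both genotypes, and naive, progenitor, interferon and recirculating lists lie below 0 in both.

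Effector genes were higher in the pancreas. Gzma had 1760.0 CPM in pancreas control against 1 UMI (6.53 CPM) in lymph node control (log2 ratio 7.96, 5.48 to 13.27), and 1027 against 47.0 CPM in CD4-Cre (4.20, 3.57 to 4.92). Of the 20 lymph node CD4-Cre UMIs, 90% came from 1 barcode, and by total UMIs the CD4-Cre ratio was 4.45 in all members and 7.03 after the broader removal. The Ccl4 ratio was 4.94 (3.08 to 7.99) in control mice and 1.44 (0.81 to 2.14) in CD4-Cre mice, with 13.1 and 51.7 CPM in the lymph node. By total UMIs the CD4-Cre ratio of Ccl4 was 1.69, or 0.52 with all barcodes listed and 3.03 with Trbv15 and Trbv13-3 barcodes kept. Cx3cr1 and S1pr5 had no UMI in lymph node members of either genotype, which puts Cx3cr1 at least 2.27 higher on the log2 scale in the pancreas in both. The terminal effector list had medians of 1.17 and 1.53, which the UMI minimum partly set. By total UMIs its CD4-Cre median was 1.78 in all members, 0.64 without other lineages and 0.997 after the broader removal. Not every cytotoxic gene followed: Gzmm was lower in the pancreas (−3.15 and −2.30), and Prf1 was level (0.23, −0.59 to 1.17, and 0.27, −0.30 to 0.87).

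Residency and inhibitory receptor genes were also higher in the pancreas. Cxcr6 was higher by 2.03 (1.42 to 2.71) in control mice and 1.45 (1.05 to 1.87) in CD4-Cre mice, and Rgs1 by 3.16 (1.93 to 4.80) and 2.86 (2.10 to 3.75). Pdcd1 had 13.1 and 28.2 CPM in the lymph node and was higher by 3.37 (1.49 to 6.42) and 1.73 (0.89 to 2.71), and Tigit was higher by 3.43 (1.56 to 6.49) and 2.14 (1.34 to 3.07). All 13 inhibitory receptor genes compared in control and all 14 in CD4-Cre were higher in the pancreas, with medians of 1.37 and 1.84. These counts were partly set by the UMI minimum, which applies to the sum of both libraries, and pancreas members held far more UMIs. A gene with few or no lymph node UMIs could pass only on its pancreas count and was then almost bound to be higher. The control intervals were also wide, with a median half-width of 1.98. The shares that follow do not use this minimum. An inhibitory receptor UMI was found in 13.04% and 18.46% of thinned lymph node members, against about 55% in the pancreas libraries given above. The share of resident barcodes was 21.7% and 26.2% in the lymph node, and 30.8% and 27.0% among CD8 barcodes with no Ccl5 UMI there, so this group did not set lymph node members apart.

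Naive and recirculating genes were lower in the pancreas members. The naive list had medians of −1.16 and −0.96, with 13 of 14 genes lower in each genotype, and the recirculating memory list had −0.66 and −0.58. After the broader removal, the CD4-Cre recirculating and progenitor exhausted medians by total UMIs were 0.12 and 0.14. Lef1 had ratios of −1.97 and −1.64, and Id3 of −2.83 and −1.43. Il2rb, a memory gene of the same list, also had a lower level in the pancreas, with values given in a later paragraph. Eomes and Cxcr3, the receptor for interferon-induced chemokines, did not follow. Eomes was at −0.02 (−0.69 to 0.72) and −0.05 (−0.45 to 0.37), and Cxcr3 at −0.02 (−0.54 to 0.53) and 0.01 (−0.32 to 0.35). Their levels depended on the setting. By total UMIs after the broader removal, Eomes was at 0.71 in CD4-Cre and Cxcr3 at 0.65 in control. With at least 1 Ccl5 UMI, Cxcr3 was at 0.61 in CD4-Cre by total UMIs. Interferon-response genes were lower in the pancreas in both genotypes (medians −0.97 and −0.65).

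S100 and immediate early genes were higher in the pancreas. All 12 S100, annexin and galectin genes were higher in both genotypes (medians 2.09 and 2.16), a count and medians that the UMI minimum partly set. S100a6, for example, had 2026 against 45.7 CPM in control (5.36, 4.31 to 6.68) and 1508 against 65.7 CPM in CD4-Cre (4.27, 3.73 to 4.86), and Lgals3, galectin-3, had no UMI in lymph node members against 441 and 440 in the pancreas. S100a6 was also high in pancreas CD8 barcodes with no Ccl5 UMI (371 and 241 CPM) and low in those of the lymph node (6.29 and 5.73 CPM). Junb, an AP-1 factor that tissue handling can raise, was higher by 4.32 (3.34 to 5.54) and 2.70 (2.31 to 3.11), and Fos had 300 and 320 UMIs in the pancreas and none in the lymph node. The labels used here do not describe how the tissues were taken apart, and the part of handling in these ratios was not tested.

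The members' levels of several memory genes are given beside those of CD8 barcodes with no Ccl5 UMI in the same library. Il2rb, a subunit of the IL-2 and IL-15 receptor, had 364, 409, 503 and 507 CPM in the members of the 4 libraries and 114, 115, 155 and 138 CPM in barcodes with no Ccl5. Cxcr3 had 236, 261, 222 and 218 CPM against 61.8, 47.2, 22.5 and 23.4. Eomes had 139, 173, 131 and 150 CPM against 49.8, 29.4, 38.0 and 27.3. Lef1 ran the other way, at 106, 141, 385 and 369 CPM against 520, 545, 810 and 678. These values are descriptions: the barcodes were split on Ccl5, and genes that go with it were bound to differ.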

How the data were processed

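Per the labels' protocols, libraries were prepared with a 10X Genomics 5′ gene expression kit. Per the submitters' processing notes, Cell Ranger and the mm10 build were used, and the matrices name software version 3.0.0, per the file headers. The deposited values are UMI counts per gene and barcode, whole numbers without normalization, for 31053 features. The annotation is not given in the sources used here.

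Members were found by the rule given above in the raw counts, with no doublet removal, and their UMIs were summed per library and scaled to CPM by the members' total. Sums have exact Poisson intervals, log2 ratios exact conditional binomial intervals, shares exact Clopper-Pearson intervals and differences of shares Newcombe intervals, all at 95%. A gene was called where it differed at least 2-fold with at least 30 UMIs over both libraries. A count of 0 was set to a floor of 3 counts per library in ratios. For shares, each barcode was first thinned to 2000 UMIs, and shallower ones were left out (19 control and 13 CD4-Cre members in the pancreas, 0 and 1 in the lymph node). There was 1 library per group, so no test and no p-value was made.

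Named genes were the 10 highest and 10 lowest ratios of each comparison among genes that had 50 or more UMIs on the higher side and 1 or more on the lower, separate Poisson intervals, and in members no less than 0.5 times the level of other kept barcodes. Receptor, immunoglobulin, haemoglobin, mitochondrial, exocrine, islet and rule genes were left out of the ranking. Members of 17 gene lists at least 2-fold different, up to 4 examples per list, the 5 markers and Pou2af1 were also eligible; further list genes were named after their values were seen. Some genes are not reported here, but they stay in the counts and medians of their lists and groups. The members and lists were chosen with earlier results of these data known. All 247 list genes were found, 2 of them (Cd244a and Znf683) under another symbol.

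Software was Python 3.11.15, numpy 2.4.6, scipy 1.17.1, pandas 2.3.3, scanpy 1.11.5 (Scrublet), R 4.3.3, edgeR 4.0.16 (TMM) and DESeq2 1.42.0 (size factors only). The ratio and share calculations were tested on simulated data.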

Additional observations from a re-analysis of the deposited data

Results flagged for a closer look

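Of the list genes and ranked genes reported here, 7 had genotype ratios in members (log2, CD4-Cre over control) of opposite signs in the pancreas and the lymph node. Both counting intervals were away from 0. The share of all genes with this pattern was not counted. Dgka, Gdi2, Cox6c and Rpl38 were already among the 10 highest or 10 lowest lymph node ratios, so that side was met by the choice of genes. All ratios here use total UMIs, and the difference between tissues was not tested. Satb1, a chromatin organizer of naive T cells, was at 0.50 in the pancreas and −0.68 in the lymph node. Dgka, a kinase that dampens receptor signalling, was at 0.26 and −0.91, and Gdi2, a regulator of Rab proteins, at 0.31 and −0.78. The other 4 ran the opposite way. Stmn1, a microtubule protein of dividing cells, was at −0.63 in the pancreas and 2.26 in the lymph node, where it rested on 3 control UMIs and 40 CD4-Cre UMIs. Junb was at −0.15 and 1.33, Cox6c, a subunit of cytochrome c oxidase, at −0.17 and 0.58, and the ribosomal protein gene Rpl38 at −0.15 and 0.43.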

How the results depend on the processing

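Genes called at least 2-fold different depended mainly on the UMI minimum. With at least 10 UMIs there were 470 higher and 393 lower in the pancreas genotype comparison, 409 and 465 in that of the lymph node, 905 lower in the control tissue comparison, and 1785 higher and 285 lower in that of CD4-Cre. With at least 100 UMIs the numbers were 27 and 26, 1 and 4, 232 and 33, and 258 and 24 in the same order of comparisons, higher then lower. TMM sizes gave 32 lower in the lymph node and 222 lower in the CD4-Cre tissue comparison, and DESeq2 size factors 34 and 221. At least 1 Ccl5 UMI gave 107 lower in the lymph node, and equal weight for each barcode 200 lower in the pancreas. The broader marker removal gave 52 higher and 76 lower in the pancreas, 290 and 74 between control tissues, and 290 and 43 between CD4-Cre tissues. Without other lineages there were 85 higher in the pancreas and 624 higher between CD4-Cre tissues.

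With Trbv15 and Trbv13-3 barcodes kept, the resident difference was −6.71 points, the inhibitory receptor median 0.068, and Ccl3 and Egr2 were at 0.49 and 0.072. At least 2 Cd8 UMIs put the cytotoxic granule median at 0.11 and H2-M2 at 1.32. Scrublet removal put H2-M2 at 1.47 and the NK receptor median at −0.043. The broader removal gave pancreas medians of −0.64 (residency), 0.81 (naive), 0.067 (cell cycle) and −0.15 (NK receptor), and Ccl3 at 0.021. Its CD4-Cre tissue medians were 0.12 (recirculating memory), 0.14 (progenitor exhausted), −0.22 (T-cell receptor signal) and −0.064 (cell cycle). Without other lineages the NK receptor median was −0.23. Fewer barcodes enter after each removal; the cause of the other changes was not tested. A shift was taken as small when it was under 0.5 times the width of the main value's counting interval. For list medians the median width over the list's genes was used, and for counts a change of at most 1.5 times. Of 349 alternative values of shares, counts and main list medians, 315 shifted by that little, but 13 of those had the other sign, 33 moved further and 1 reversed. Of 2018 for single genes, other lists and receptor segments, 1884 shifted by that little, 47 of them with the other sign, 121 moved further and 13 reversed. No paired analysis was possible because each group had 1 library. The 23 lymph node control members limit every ratio that uses them, since 1 UMI there is worth 6.53 CPM.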
